A study of Mus musculus with 2 samples.

Results

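The G2/M cycling squamous cells of mouse esophageal organoids were 100 single cells, taken as the cells with the highest summed level of 8 mitosis genes among 455 squamous cells of the esophageal sample. The ranking used Ube2c, Plk1, Aurka, Ccnb1, Cenpf, Prc1, Nusap1 and Birc5, as their summed unique molecular identifiers (UMIs, 1 per captured transcript) per 10000 UMIs of the cell. The remaining 355 squamous cells, called the other cells, served as the comparison. A cell was eligible if it carried the esophageal sample tag, had at most 20% mitochondrial UMIs and at least 10000 UMIs, and if Krt5, Krt14, Krt6a and Krt13 made up at least 75% of its UMIs of these 4 squamous keratins plus the columnar keratins Krt8 and Krt18. Of 919 barcodes with the esophageal tag, 798 passed the mitochondrial limit, 485 of these passed the UMI minimum and 455 of these passed the keratin limit.

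Single-cell RNA sequencing was performed on organoids of esophageal and of stomach epithelium, 1 sample each, pooled in 1 run after tagging with MULTI-seq, a lipid-anchored DNA barcode. Demultiplexing gave each of 1099 barcodes 1 tag, the esophageal tag for 919 and the stomach tag for 180. Single cells can hold counts of both tags. In the G2/M cells these were 64 to 2240 for the esophageal and 13 to 61 for the stomach tag. The labels give both samples as untreated and name neither strain, sex nor age. Per the methods of the study, cells of several mice were combined, so animals cannot be told apart, and the esophageal medium held EGF, noggin, FGF-10, forskolin, a ROCK inhibitor and a TGF-β receptor kinase inhibitor. With 1 sample, there was no replicate check and no test. Since the cells were chosen from the same counts, every difference below is a description, and 95% intervals cover counting error only.

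Stratified squamous epithelium is renewed by basal cells, which divide, leave the basement membrane and differentiate as they move toward the surface. In G2 a cell has copied its DNA and builds up cyclin B and CDK1. In mitosis condensed chromosomes are captured by the spindle, and their separation and the end of mitosis depend on the anaphase-promoting complex, a ubiquitin ligase that marks cyclin B and securin for destruction. Many genes of this phase are transcribed together, through the factors B-MYB and FOXM1 and the MuvB complex, which reads the CHR element, and through NF-Y, which reads CCAAT boxes.

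The ranking genes cover these steps. Ube2c, the ubiquitin-conjugating enzyme of the anaphase-promoting complex, gave 40.2% of all marker UMIs of the G2/M cells. Its level per cell was 1.90 to 32.2 UMIs per 10000 with a median of 11.8 in the G2/M cells, and 0 to 6.80 with a median of 0.194 in the other cells. Summed over cells, Ube2c reached 1284 CPM (counts in 1e+06 UMIs of the group) against 76.4, which is 16.8-fold (15.8 to 17.9). The ranges of single cells overlapped, although every G2/M cell held Ube2c. Nusap1, which binds spindle microtubules, had 262 against 19.0 CPM, 13.8-fold (12.1 to 15.8). Plk1, the Polo-like kinase of mitotic entry, had 113 against 9.50 CPM, and Aurka, the centrosomal Aurora kinase, 136 against 12.2 CPM. These are 11.9-fold (9.89 to 14.4) and 11.1-fold (9.42 to 13.2).

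Cenpf, a kinetochore protein that builds up in G2, was at 403 against 40.9 CPM. Prc1, which bundles the microtubules of the central spindle, was at 402 against 42.2 CPM. Ccnb1, cyclin B1, was at 214 against 25.3 CPM, 8.46-fold (7.51 to 9.54). Birc5, the survivin subunit of the chromosomal passenger complex, differed least of the 8 markers, with 382 against 74.5 CPM, 5.12-fold (4.76 to 5.52). It was detected in all 100 G2/M cells and in 158 of the 355 other cells. The direction of all these folds was fixed by the ranking. On GRCm38, in GENCODE M21, Ube2c lies at chr2:164769898-164778822 on the plus strand, Plk1 at chr7:122159439-122169873 on the plus strand and Birc5 at chr11:117849251-117855743 on the plus strand.

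Ranking by a part of the markers and reading the others also gave higher levels in the cells taken. When the 100 cells were taken by Ube2c, Plk1, Aurka and Ccnb1 alone, 95 of them were G2/M cells, and Cenpf, Prc1, Nusap1 and Birc5 summed to 1429 against 186 CPM, 7.70-fold (7.37 to 8.05). When they were taken by the latter 4 genes, 91 were G2/M cells, and the former 4 summed to 1681 against 143 CPM, 11.7-fold (11.2 to 12.3). The markers read here came from the same cells and library, so this is a description too.

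The start regions of 6 genes are shown since a match to at least 1 of the elements named above can be read in each. In the bases printed, matches to both were read in Ube2c, Cdc20, Cdk1 and Top2a. Each is the 130 bases before the start site in RefSeq on GRCm38.p6, written 5′ to 3′ along the gene. Capitals mark TTTGAA, the only form of the CHR element that was searched for, or CCAAT, each on either strand (TTCAAA and ATTGG on the other). The stretches are chr2:164769799-164769928 on the plus strand for Ube2c and, on the minus strand, chr4:118437344-118437473 for Cdc20, chr10:69352913-69353042 for Cdk1, chr11:99024190-99024319 for Top2a, chr7:135716380-135716509 for Mki67 and chr13:100786487-100786616 for Ccnb1.
Ube2c: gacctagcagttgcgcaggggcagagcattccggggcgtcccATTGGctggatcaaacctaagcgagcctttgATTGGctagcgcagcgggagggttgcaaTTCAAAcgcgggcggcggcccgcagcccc
Cdc20: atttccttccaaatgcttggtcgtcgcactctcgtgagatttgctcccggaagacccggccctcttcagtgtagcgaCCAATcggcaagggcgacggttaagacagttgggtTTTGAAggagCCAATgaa
Cdk1: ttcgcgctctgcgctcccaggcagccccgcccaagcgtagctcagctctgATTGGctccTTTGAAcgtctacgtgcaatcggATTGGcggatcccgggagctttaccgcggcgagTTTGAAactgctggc
Top2a: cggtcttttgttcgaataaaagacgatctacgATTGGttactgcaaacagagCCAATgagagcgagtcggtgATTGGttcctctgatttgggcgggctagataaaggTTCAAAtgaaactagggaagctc
Mki67: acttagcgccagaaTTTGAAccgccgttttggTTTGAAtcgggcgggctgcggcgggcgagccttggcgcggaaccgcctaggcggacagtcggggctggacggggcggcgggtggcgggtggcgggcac
Ccnb1: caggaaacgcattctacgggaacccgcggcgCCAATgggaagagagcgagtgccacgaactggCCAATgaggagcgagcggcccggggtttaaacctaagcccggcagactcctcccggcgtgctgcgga
Cdk1 and Mki67 held 2 TTTGAA matches each in these stretches and Ube2c, Cdc20 and Top2a 1 each. Ccnb1 held 2 CCAAT boxes and no TTTGAA, and Mki67 held no CCAAT. Other forms of the CHR element were not searched for, so Ccnb1 cannot be said to lack it. In windows of 300 bases, 250 before and 50 after the start, the 8 ranking genes had 9 promoters, of which 6 held both motifs and 7 held CCAAT. Prc1 entered with more than 1 promoter. By gene, 5 of the 8 held both motifs and 6 held CCAAT, while Nusap1 and Birc5 held no match to either motif. Mki67 also held both in this window, with CCAAT matches that began 188, 166 and 141 bases before the start. Of the 91 other mitosis genes described below, 74 had promoters in the table, 82 in all, of which 59.8% held TTTGAA, 69.5% CCAAT and 47.6% both. Over all 32851 promoters of the table the shares were 17.9%, 37.4% and 6.95%. Promoters of DNA replication genes, 32 of 27 matched genes, held TTTGAA in 9.38% and CCAAT in 53.1%. The 2 motifs overlapped in 47 of all promoters. A match is a stretch of letters and was not tested for binding.

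The score of the 100 cells ran from 16.2 to 57.9 marker UMIs per 10000 (median 29.5), against a median of 0.697 and a highest value of 16.05 in the other cells. The cells at ranks 98, 99 and 100 had 17.6, 17.0 and 16.2, and the next 3 cells had 16.05, 15.99 and 15.8. Among the other cells, 71 had a score of at least 5 and 36 of at least 10, so the ranking had no gap at the boundary and the comparison group held cells with many of the same transcripts. The G2/M cells held 79.6% of the marker UMIs of all 455 cells with 26.8% of their UMIs.

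**Figure D1:**
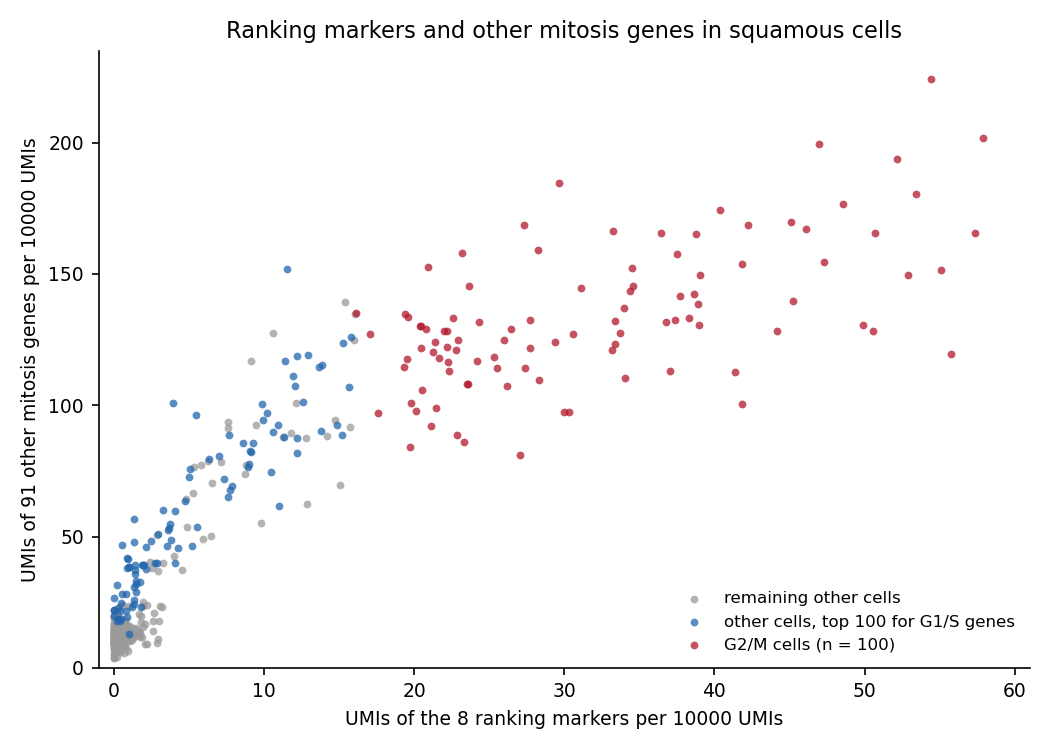
Each point is 1 of 455 squamous cells, with the 8 ranking markers on the x axis and 91 other mitosis genes on the y axis, both as UMIs per 10000 UMIs of the cell. Red points are the 100 G2/M cells, blue points the 100 other cells with the most G1/S transcripts and grey points the remaining 255. All red points lie above the median of the other cells on the y axis.

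Cells far along in differentiation, which should hold few of these transcripts, were used to gauge the background. They were drawn after the 100 cells highest in the markers had been removed, so a low marker level was partly built in. The 1 G2/M cell in their range of differentiated genes, left out here, had 23.3 marker UMIs per 10000. The 36 other cells with the most transcripts of differentiated squamous genes had 37.8 CPM (28.6 to 49.0) of the 8 markers, against 3196 CPM (3148 to 3244) in the G2/M cells. Other groups held single cells or droplets with high marker levels and are no measure of background. In 85 columnar cells of the stomach sample the markers had 342 CPM, 30.6% of it from 1 cell, and in 219 esophageal droplets with under 3000 UMIs 808 CPM, with up to 105 marker UMIs per 10000 in a droplet. After every cell was thinned to 10000 UMIs, Ube2c had a UMI in 100% of the G2/M cells, in 31.0% of the other cells and in 22.2% of the 36 differentiated cells. Before thinning, at median depths of 55675, 38741 and 34153 UMIs, it was found in 100%, 53.8% and 47.2% of these groups. Thinned shares of Plk1 were 68.0%, 8.45% and 2.78%, and those of Aurka 76.0%, 9.58% and 0%, the last of which allows up to 9.74%.

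**Figure D2:**
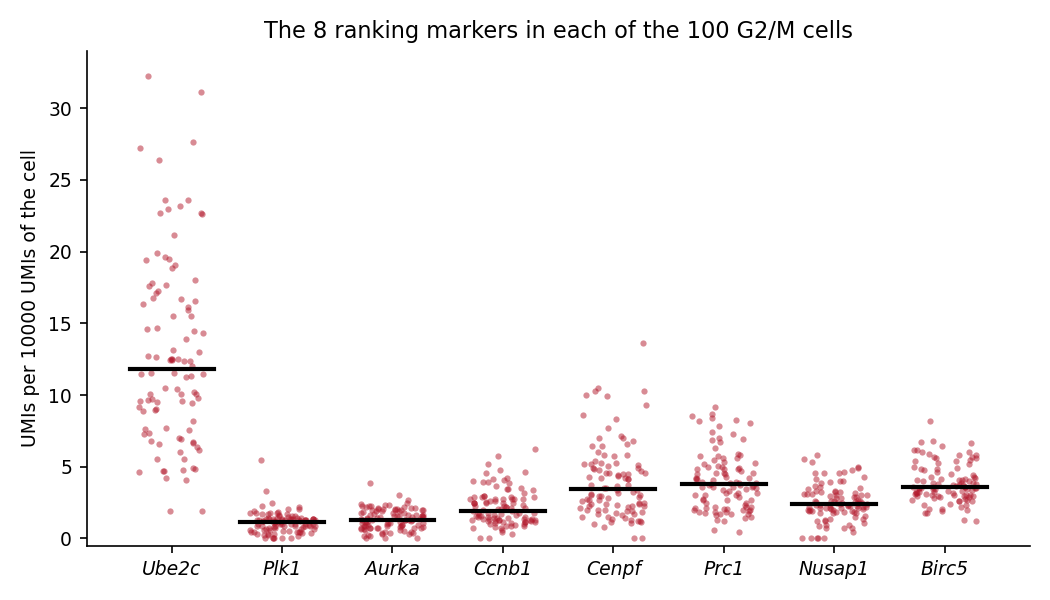
The level of each ranking marker in the 100 G2/M cells, as UMIs per 10000 UMIs of the cell, with 1 point per cell, spread sideways for visibility, and the median as a bar. Ube2c spans 1.90 to 32.2 around a median of 11.8, while the medians of the other markers lie between 1.16 for Plk1 and 3.77 for Prc1.

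The label squamous was checked against genes outside the keratin filter. Trp63, the p63 factor of squamous basal cells, was detected in 97 of 100 G2/M cells at a median of 0.968 UMIs per 10000, against 0.952 in the other cells and 0 in the columnar cells of the stomach. Immune and stromal genes were near 0. Of 8 immune genes only Cd68, which epithelial cells can also hold, was measured, at 23.6 against 33.6 CPM. Of 8 fibroblast genes and of 8 endothelial and neural genes, 0 reached the minimum of 10 UMIs, and the summed level was 0 and 0.751 CPM in the G2/M cells. Columnar and gastric genes summed to 1.00 to 29.6 UMIs per 10000 (median 6.44) in the G2/M cells and 0.397 to 81.9 (median 4.84) in the other cells, against 27.1 to 262 (median 70.5) in the columnar cells of the stomach sample.

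Over the transcriptome, most genes were alike in the G2/M and the other cells. Of 12409 genes with at least 10 UMIs, 559 (4.5%) were at least 2 times higher and 814 (6.56%) at least 2 times lower in the G2/M cells, and 11036 lay within 2-fold. The median log2 fold of all measured genes was 0.03. Of the 559 higher genes, 92 were ranking markers or belonged to the 91 other mitosis genes. With a minimum of 50 UMIs, which left fewer genes measured, the counts were 340 and 354, so they cannot be set against these shares. The fold threshold carries no test, and these shares are the background for the counts below.

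Outside the ranking markers, with limits of 20 CPM, 100 UMIs and no more than 20% of the UMIs in 1 cell, the 12 genes whose interval lay farthest above no change were led by Prr11, which had 29.1 against 2.20 CPM, 13.2-fold (8.98 to 20.0). Sapcd2, a regulator of spindle orientation, had 49.5 against 4.82 CPM, 10.3-fold (7.88 to 13.6). Cdc25c, the phosphatase that activates CDK1, had 38.5 against 3.99 CPM, 9.64-fold (7.17 to 13.1). The others included Aspm, Cep55, Pimreg, Hmmr, Knl1, Cenpe, Tpx2 and Cdc20, between 6.76-fold and 8.09-fold.

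The 91 mitosis genes that the ranking did not use summed to 13347 CPM against 3441 CPM, 3.88-fold (3.83 to 3.92). Of these, 84 were at least 2 times higher and 0 at least 2 times lower, with a median log2 fold of 2.26. Per cell, the sum was 81.2 to 224 UMIs per 10000 (median 130) in the G2/M cells and 3.86 to 152 (median 15.0) in the other cells. All 100 G2/M cells lay above the median of the other cells, and 24 lay above the highest of them. Conversely, 45 of the 355 other cells lay above the lowest G2/M cell and 3 above the median G2/M cell. Against the other cells with a marker score under 5, the fold on the log2 scale was 2.83 in place of 1.96.

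Kinases and cyclins of mitotic entry were higher in 15 of 16 cases. Cdk1 had 332 against 64.3 CPM, 5.17-fold (4.77 to 5.60), and Ccnb2, cyclin B2, 210 against 40.6 CPM. Cdc25b, another activator of CDK1, was 6.24-fold higher (5.25 to 7.44). Wee1, the kinase that holds CDK1 inactive, was also higher, at 33.4 against 12.5 CPM. Only Pkmyt1, the other inhibitory kinase, stayed within 2-fold, at 18.4 against 13.6 CPM.

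Genes of chromosome capture followed. All 15 kinetochore and centromere genes were at least 2 times higher, among them Cenpe, a kinesin of chromosome alignment, at 191 against 26.9 CPM, and Cenpa, the centromeric histone, at 363 against 59.7 CPM. Of 11 spindle checkpoint genes, 10 were higher, with Knl1, the kinetochore scaffold of the BUB kinases, at 147 against 20.7 CPM. Mad1l1 was at 18.4 against 11.4 CPM.

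All 22 spindle motor and microtubule genes and all 8 cytokinesis genes were at least 2 times higher, with summed folds of 5.61 (5.45 to 5.78) and 5.55 (5.21 to 5.91). Hmmr, a spindle assembly protein, had 238 against 32.5 CPM, and Tpx2, the activator of Aurora A, 225 against 32.5 CPM. Kif2c, a kinesin that takes apart microtubules at centromeres, was 7.48-fold higher (6.06 to 9.29). Cep55, a midbody protein of abscission, was at 55.2 against 6.95 CPM and Anln, the anillin of the contractile ring, at 128 against 20.0 CPM.

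Genes of mitotic exit were less uniform, with 7 of 10 at least 2 times higher. Cdc20, the mitotic activator of the anaphase-promoting complex, had 296 against 43.7 CPM, 6.76-fold (6.17 to 7.43). Fzr1, the activator of late mitosis and G1, was at 54.98 against 15.96 CPM. Pttg1, which encodes securin, stood apart at 30.4 against 24.98 CPM, 1.22-fold (1.01 to 1.47). Its level per cell had a median of 0.202 UMIs per 10000 in the G2/M cells and 0.155 in the other cells. It was the only one of 12 genes of the M-side list used below that was not at least 2 times higher.

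Among chromosome proteins, Top2a, topoisomerase II alpha, had 678 against 123 CPM, 5.53-fold (5.22 to 5.85), and Mki67, the Ki-67 antigen, 379 against 77.1 CPM. In 10 condensation genes, 8 were at least 2 times higher, while the condensin II genes Ncapd3 and Ncapg2 were at 1.98-fold and 1.61-fold. Cohesin genes differed less, with 3 of 11 higher. These were Rad21, the cleavable subunit, at 2.50-fold, Cdca5, sororin, at 2.89-fold and Esco2, a cohesin acetyltransferase, at 2.78-fold. Cells with the most G1/S transcripts among the other cells had 78.8 CPM of Esco2 and 27.1 CPM of Cdca5. The G2/M cells had 76.6 and 29.6 CPM. Rad21 had 68.5 CPM in these G1/S cells and 125 CPM in the G2/M cells. The sum of the cohesin genes was 1.07-fold (1.03 to 1.12) over these G1/S cells. The ring subunits Smc1a and Smc3 were at 1.58-fold and 1.25-fold.

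Tubulins split by isotype. Tubb4b had 1847 against 590 CPM, 3.13-fold (3.04 to 3.22), Tubb5 2.57-fold, Tuba1b 2.58-fold, Tuba1c 2.65-fold and Tubb6 2.58-fold. Tubb2a was lower, at 15.2 against 34.6 CPM. Of 10 centrosome genes, 8 were higher, led by Stil and Plk4, both needed to form centrioles, at 3.61-fold and 3.58-fold. The nuclear lamina genes Lmnb1, lamin B1, and Lbr, its receptor, were at 2.36-fold and 2.06-fold, and the other 6 of 8 stayed within 2-fold.

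**Figure D3:**
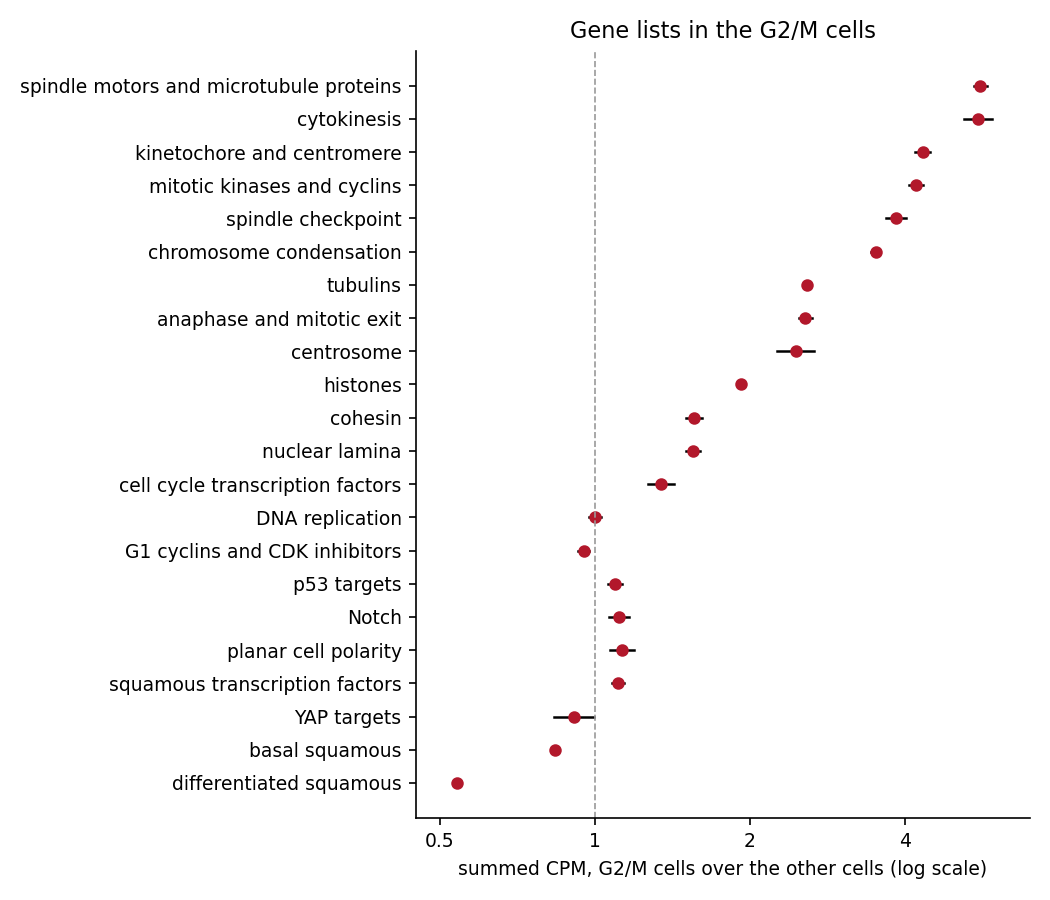
Summed CPM of gene lists in the 100 G2/M cells divided by that in the 355 other cells, on a log axis, with 95% counting intervals as lines. Spindle motors lie at 5.61, centrosome genes at 2.46, cohesin genes at 1.56, DNA replication genes at 1.00 and differentiated squamous genes at 0.541.

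Of 18 transcription factors of the cell cycle, 3 were at least 2 times higher and 1 lower. Foxm1, the factor of G2/M genes, had 20.5 against 4.20 CPM, 4.87-fold (3.53 to 6.78). Lin54, the subunit of MuvB that binds the CHR element, was at 2.51-fold and E2f8, a repressor of E2F targets, at 2.06-fold. E2f1, an activator of the G1/S transition, was at 9.20 against 22.2 CPM, 2.41-fold lower (1.78 to 3.32). E2f1 had 51.3 CPM in the 100 other cells with the most G1/S transcripts and 8.40 CPM in the remaining 255, so its direction depended on which other cells were compared. E2f8 had 28.6 and 1.52 CPM in these groups, against 21.0 CPM in the G2/M cells, so its highest level was in the G1/S cells. Foxm1 and Lin54 were lower in the G1/S cells than in the G2/M cells, at 10.5 and 16.5 CPM. The 18 genes summed to 335 CPM in the G2/M cells and 397 CPM in the G1/S cells. Mybl2, B-MYB, was at 9.01 against 6.399 CPM and Nfya, a subunit of NF-Y, at 10.7 against 11.6 CPM.

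DNA replication genes showed a sum alike in both groups that was made of 2 unlike parts. The 33 genes summed to 1505 CPM in the G2/M cells and 1503 CPM in the other cells, 1.00-fold (0.976 to 1.03). The other cells split into 3659 CPM in the 100 cells ranked highest by 12 G1/S genes, a ranking made from the same counts, and 487 CPM in the remaining 255. Per cell the groups were not alike, with a median of 12.6 UMIs per 10000 in the G2/M cells and 4.69 in all other cells. The G2/M median lay between 36.5 and 3.34 in the 2 parts of the other cells. For the 12 G1/S genes, 92 of 100 G2/M cells lay above the median of the other cells. Of the 100 G2/M cells, 11 were themselves among the 100 of all 455 cells with the most G1/S transcripts.

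Individual replication genes ran in both directions. Tk1, thymidine kinase, had 130 against 59.9 CPM, 2.17-fold (1.96 to 2.40), and Rrm1, the large subunit of ribonucleotide reductase, 106 against 51.9 CPM. In the G1/S cells both were above the G2/M cells, Tk1 at 149 and Rrm1 at 118 CPM. Lower by 2-fold or more were 4 genes, among them Mcm6, of the replicative helicase, at 27.8 against 60.2 CPM, 2.17-fold lower (1.82 to 2.60). Ung, the uracil-DNA glycosylase, was at 1.13 against 21.8 CPM, 19.4-fold lower (8.80 to 53.2), with UMIs in 5 of 100 G2/M cells and in 105 of 355 other cells. Its level was 57.3 CPM in the G1/S cells and 5.06 CPM in the remaining cells. Mcm6 was 146 CPM and 19.5 CPM in these groups, so against the remaining cells alone it was higher in the G2/M cells. Pcna, the sliding clamp, had 108 against 145 CPM, with the opposite direction in 2 of 18 alternative settings. After thinning it was found in 56.0% of the G2/M cells and 52.4% of the other cells. Among the latter these shares were 96.0% of the G1/S cells and 35.3% of the remaining cells.

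Histone genes were higher in 11 of 16 cases. The libraries capture polyadenylated ends, which most replication-dependent histone transcripts lack, so their levels stand for the captured transcripts only. H2afx, the variant histone of DNA damage marking, had 244 against 55.9 CPM, 4.37-fold (4.00 to 4.78). H2afz, another variant, was at 1.68-fold. Hist1h2ae and Hist1h1b were at 3.37-fold and 2.52-fold. Hist1h2bc ran the other way, at 22.5 against 155 CPM, 6.87-fold lower (5.71 to 8.32), with 219 CPM in the cells outside the G1/S and G2/M groups.

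G1 cyclins and inhibitors of cyclin-dependent kinases differed little, with Ccnd1, cyclin D1, at 266 against 281 CPM and Cdkn1a, p21, at 179 against 197 CPM. Of 14 genes, 2 were at least 2 times higher, both INK4 inhibitors of cyclin D kinases. Cdkn2d, p19, had 106 against 26.9 CPM, 3.95-fold (3.46 to 4.50), and Cdkn2c, p18, 27.6 against 10.7 CPM, 2.59-fold (2.05 to 3.26). Their levels in the G1/S cells were 45.5 and 21.9 CPM. Cdkn1b, p27, was at 59.7 against 29.9 CPM, 1.998-fold (1.72 to 2.31). Of 12 p53 target genes, 11 stayed within 2-fold, and the remaining gene was Gtse1, which is also a microtubule protein of G2.

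Basal squamous genes were close to the other cells in number and lower in sum. Of 15 measured genes, 0 were 2 times higher or lower, and the median log2 fold was -0.0048. The sum was 4571 against 5456 CPM, 1.19-fold lower (1.18 to 1.21), in which Krt17 alone had 2170 against 3275 CPM. Krt15, a keratin of basal cells, had 946 against 793 CPM, and Itgb4 and Itga6, the integrin pair of hemidesmosomes, 258 against 208 and 149 against 149 CPM. Lama3, a laminin chain of the basement membrane, was at 20.3 against 30.2 CPM. The filter keratins Krt5 and Krt14, which this list leaves out, were also lower, at 2864 against 3386 and 3209 against 4324 CPM.

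Differentiated squamous genes were lower, with 11 of 22 at least 2 times lower and 0 higher. Their sum was 4932 against 9125 CPM, 1.85-fold lower (1.83 to 1.87), and the median log2 fold was -1.03. Mal, a lipid raft protein of suprabasal cells, had 6.19 against 214 CPM, 34.5-fold lower (24.5 to 50.2). Crct1, Sprr1a and Cnfn, genes of the cornified layer, were 13.7-fold, 12.6-fold and 11.4-fold lower. In each of these 4 genes a single other cell held between 22.7% and 32.6% of the UMIs of the other cells. Spink5, a protease inhibitor of the upper layers, had 14.6 against 104 CPM. Genes of earlier differentiation were nearer, such as Krtdap at 886 against 1508 CPM and Tgm1, transglutaminase 1, at 94.4 against 162 CPM.

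Per cell, the differentiated genes gave 5.88 to 288 UMIs per 10000 (median 40.7) in the G2/M cells and 3.51 to 848 (median 59.1) in the other cells. The groups overlapped, and 22 of 100 G2/M cells lay above the median of the other cells. The 100 G1/S cells, at a median of 46.4, had 4515 CPM in sum, and the G2/M cells 1.09 times as much (1.07 to 1.11). Only 1 G2/M cell, at 288, lay in the range of the 36 most differentiated other cells, which began at 203. Among the keratins of the filter, Krt13 and Krt6a, the keratins of suprabasal cells, made up 5.68% to 88.3% (median 24.99%) of the 4 squamous keratins in the G2/M cells and 3.60% to 98.1% (median 29.3%) in the other cells.

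**Figure D4:**
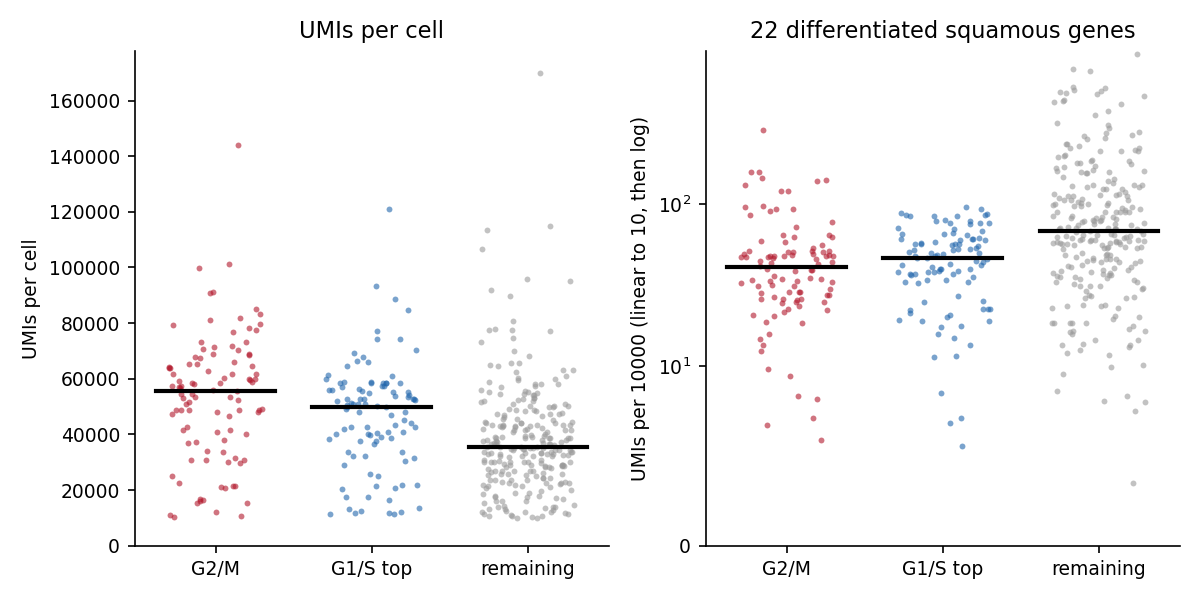
UMIs per cell (left) and UMIs of 22 differentiated squamous genes per 10000 UMIs (right, linear up to 10 and logarithmic above), with 1 point per cell and medians as bars, for the 100 G2/M cells, the 100 G1/S cells and the remaining 255. The median UMI count falls from 55675 to 50004.5 to 35484 over these groups, and the highest values of differentiated genes are in the remaining cells.

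Under the same limits, which leave out Mal, the gene whose interval lay farthest below no change was AA467197, with 12.01 against 337 CPM, 28.0-fold lower (21.9 to 36.5), and 19.8% of the UMIs of the other cells in 1 cell. Krt16, a keratin of suprabasal and activated keratinocytes, had 112 against 811 CPM, 7.24-fold lower (6.67 to 7.87). Slpi, a secreted protease inhibitor, had 67.6 against 403 CPM and Cldn4, a claudin of tight junctions, 5.82 against 47.5 CPM. Hopx, Clic3, Gprc5a, Ecm1, Ifi209 and Cxcl1 were between 4.39-fold and 6.78-fold lower. Most of these genes were low in the G1/S cells as well. In the G1/S cells AA467197 had 9.88 CPM, Krt16 127, Slpi 19.5, Cldn4 2.36, Hopx 10.1, Clic3 2.15, Gprc5a 4.30, Ecm1 94.7, Ifi209 1.503 and Cxcl1 49.6 CPM. Ung and Hist1h2bc, described above, complete the 12 genes.

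Among squamous transcription factors, 3 of 13 passed 2-fold, all with lower levels. They were Elf3, an epithelial ETS factor of differentiation, at 32.1 against 89.6 CPM, Grhl1 at 3.19 against 11.2 CPM and Ovol1 at 8.44 against 18.9 CPM. Sox2 and Trp63, factors of basal cells, were at 1.25-fold (1.14 to 1.36) and 1.18-fold (1.08 to 1.29). In the Notch pathway, which drives basal cells to differentiate, 0 of 10 genes passed 2-fold. The receptor Notch1 had 161 against 89.5 CPM, 1.80-fold (1.65 to 1.96), the ligand Jag2 68.5 against 56.2 CPM and the target Hes1 237 against 247 CPM. Of 13 planar cell polarity genes, 0 passed 2-fold, and Vangl1 was highest at 1.66-fold (1.40 to 1.96).

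Of 11 WNT ligands and targets, 1 was lower, the stem cell receptor Lgr5, with 2 UMIs in the G2/M cells, 0.375 against 1.51 CPM, and a ratio of 0.248 (0.0283 to 1.01). Wnt4 and Wnt10a, the ligands with the most transcripts, had 280 against 294 and 98.9 against 104 CPM. Of 9 YAP targets, 2 were lower, Ccn2 and Ankrd1, both under 4 CPM. Glycolysis, respiratory chain and ribosomal protein genes had 0 of 14, 0 of 16 and 0 of 86 genes past 2-fold. Of 14 immediate early and stress genes, 2 were lower, Atf3 at 38.1 against 90.9 CPM and Zfp36 at 29.5 against 62.0 CPM, while the heat shock genes Hspa1a and Hspa8 were at 0.996-fold and 1.00-fold.

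Of 15 columnar and gastric genes, 10 were at least 2 times lower, although the sum, mostly Epcam and Krt19, was alike at 717 against 731 CPM. Pigr had 4.88 against 24.98 CPM, with 78.2% of the UMIs of the other cells in 1 cell. The share in 1 cell was 37.2% for Tspan8, 33.9% for Muc1 and 33.5% for Krt7, so these lower levels rest in part on single other cells. Taking 150 cells in place of 100 turned Pigr, Muc1 and Tspan8 to higher levels in the G2/M cells.

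The G2/M cells held more UMIs than the other cells, 10290 to 143918 with a median of 55675, against 10015 to 169924 with a median of 38741. The ratio of medians was 1.44, and 74 of 100 G2/M cells lay above the median of the other cells. G1/S cells had a median of 50004.5 and the remaining cells 35484. Detected genes per cell had medians of 6307 and 5095, which thinning to 10000 UMIs brought to 2736 and 2571. Of the G2/M cells 9 had over 80000 UMIs, and 0 were among the 5 barcodes of the run that the doublet caller Scrublet marked, too few for that caller to be relied on. The part of doublets in the UMI difference was not tested. Median counts of the stomach tag were 38 and 40, and the mitochondrial share had medians of 3.78% and 3.87%.

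The G2/M cells varied among themselves. Over the 100 cells, 21 pairs of the 7 markers other than Birc5 had Pearson correlations of 0.20 to 0.62, and the 7 pairs with Birc5 -0.06 to 0.27. These cells share 1 library, and low counts add noise to each pair. The cells were also chosen by the sum of these same markers, which in itself alters such correlations. The values therefore describe the chosen cells only. Each cell was also placed by 10 genes of the G2 side, such as Top2a and Mki67, and 12 of the M side, such as Cdc20 and Ccnb2. The M side made up 14.7% to 63.4% (median 36.8%) of both sides.

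The 50 cells with the larger M-side share were compared with the other 50, at median UMI counts of 54999.5 and 56279.5. In genes the split did not use, Ccnb1 had 270 against 156 CPM, 1.73-fold (1.53 to 1.95), Cenpf 531 against 270 CPM, 1.97-fold (1.80 to 2.16), and Ube2c 1607 against 950 CPM, 1.69-fold (1.61 to 1.78). Cdkn3, a phosphatase that acts on cyclin-dependent kinases, had 120 against 51.9 CPM, 2.31-fold (1.88 to 2.84). Birc5 was alike at 392 against 371 CPM, 1.06-fold (0.967 to 1.15). The median marker score was 38.8 in these cells and 24.3 in the other 50, so the split also follows the ranking.

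The 50 cells with the smaller M-side share held more replication transcripts, 1993 against 1032 CPM, 1.93-fold. Tyms, thymidylate synthase, had 113 against 42.8 CPM, Lig1, DNA ligase 1, 89.7 against 32.1 CPM and Pclaf, a partner of PCNA, 457 against 178 CPM. The histones Hist2h2ac, Hist1h1b and Hist1h2ae were 4.41-fold, 3.21-fold and 2.80-fold higher there. Krt15 had 1186 against 714 CPM in these cells, while Krt17 had 1922 against 2411 CPM. Basal genes were alike in sum, at 4573 and 4570 CPM, and differentiated genes were at 4695 and 5162 CPM.

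**Figure D5:**
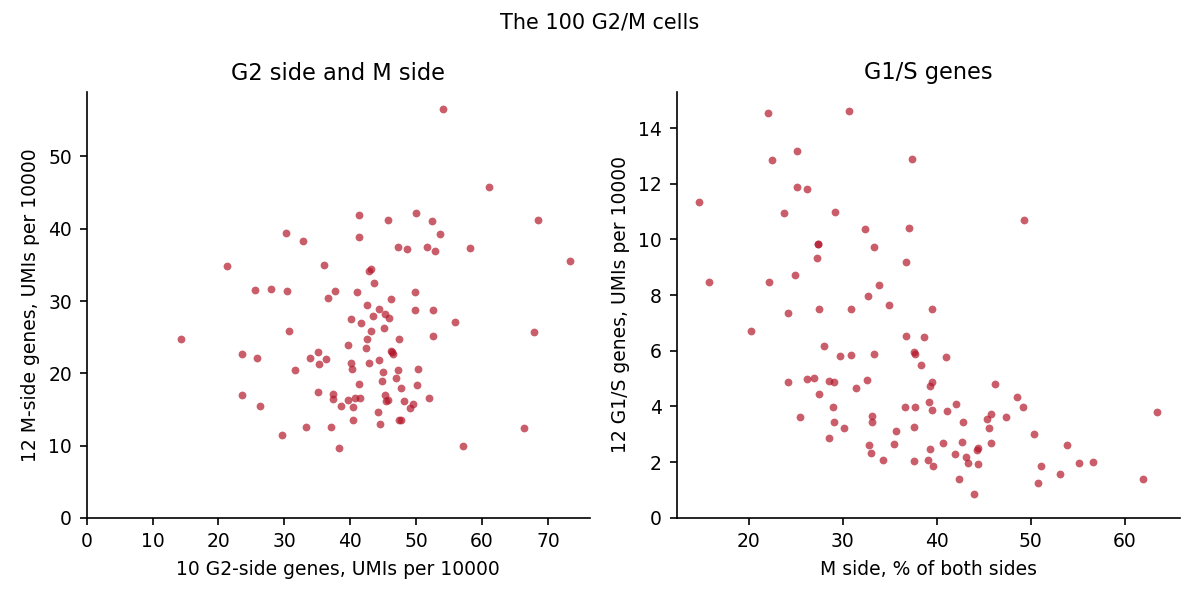
The 100 G2/M cells, 1 point each, with 12 M-side genes against 10 G2-side genes as UMIs per 10000 (left) and 12 G1/S genes per 10000 against the M-side share in percent (right). The share runs from 14.7% to 63.4%, and the highest G1/S level is 14.6.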

How the data were processed

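The authors deposited raw UMI counts per gene and barcode, made per the submitters' processing notes with Cell Ranger 3.1.0 on mm10, and tag counts with the sample that demultiplexing gave each barcode. The matrix held 32285 genes and 31825863 UMIs in 1099 barcodes. The study left out cells with mixed squamous and columnar keratins. The keratin limit removed only the cells below it, so cells with some columnar keratin remained. The lowest squamous keratin share kept was 87.9% in the G2/M cells and 76.3% in the other cells. Scrublet (Scanpy 1.11.5) marked 0.455% of barcodes, too few to serve as a doublet call. UMIs were summed per group and divided by its total to give CPM (5328905 UMIs in the G2/M cells, 14533597 in the other cells). Ratios have exact conditional binomial, sums exact Poisson and shares exact Clopper-Pearson intervals, at 95%. Genes with no UMI in a group entered the counts at 3 UMIs over that group. The cells, gene lists and alternatives were chosen with earlier results of these data known. Named genes were the ranking markers, up to 4 genes per list with the largest absolute log2 fold at 10 CPM or more, and over all genes the 12 in each direction whose interval lay farthest from no change, at 20 CPM and 100 UMIs or more and without markers, filter keratins, mitochondrial, ribosomal and provisional genes or genes with over 20% of UMIs in 1 cell. Other genes were named after their values were seen. Lists, sums and folds were computed with Python 3.11.15, and TMM factors with edgeR 4.0.16. The code was tested on simulated data.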

Additional observations from a re-analysis of the deposited data

How the results depend on the processing

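No paired analysis was possible because both groups of cells came from the same 1 sample and no result came from a test. For the same reason no replicate could be left out. Of 18 settings, 17 were planned and 1, which kept only other cells with a marker score under 5, was chosen after seeing the data. On the log2 scale the main values were 1.96 for the 91 held-out mitosis genes (those the ranking did not use), 0.0017 for DNA replication genes, -0.26 for basal squamous genes and -0.89 for differentiated squamous genes. Mitosis genes moved to 1.64 with 50 cells taken, 2.39 with 150, 1.89 with a minimum of 5000 UMIs, 2.03 with 20000, 2.02 with upper limits on genes and UMIs, 1.999 with at most 10% mitochondrial UMIs, 1.98 with 90% squamous keratins, 1.89 with TMM, 2.04 with every cell weighted equally, 1.999 after thinning, 1.93 when ranked by Ube2c, Plk1, Aurka and Ccnb1, 2.63 without the G1/S cells and 2.83 in the added setting. DNA replication genes moved to -0.54 with 50 cells, 0.74 with 150, 0.19 with 20000 UMIs, 0.063 with 10% mitochondrial UMIs, -0.061 with TMM, 0.14 with equal weights, 0.20 after thinning, 0.072 with markers on a log scale, 0.24 when ranked by Cenpf, Prc1, Nusap1 and Birc5, 1.63 without the G1/S cells and 0.47 in the added setting. Basal genes moved to -0.20 with 50 cells, -0.28 with 5000 UMIs, -0.23 with 20000 UMIs, with 10% mitochondrial UMIs and without the G1/S cells, -0.32 with TMM, -0.33 with equal weights, -0.30 after thinning, -0.22 when ranked by Ube2c, Plk1, Aurka and Ccnb1 and -0.29 in the added setting. Differentiated genes moved to -0.94 with 50 cells and with 20000 UMIs, -1.10 with 150 cells, -0.84 with the upper limits, -0.92 with 10% mitochondrial UMIs and with 90% squamous keratins, -0.95 with TMM, -0.87 and -0.86 with the rankings by 4 markers, -1.20 without the G1/S cells and -1.11 in the added setting. Genes at least 2 times higher numbered 559, 340 with a minimum of 50 UMIs and 882 without the G1/S cells, and lower genes 814 and, with 50 UMIs, 354. Both settings also left fewer genes measured. Pigr turned from -2.36 to 2.79 with 150 cells and to 0.14 with 90% squamous keratins. With 150 cells Muc1 turned to 0.35 and Tspan8 to 0.86, and without the G1/S cells E2f1 turned to 0.13 and Mcm6 to 0.51. The cause of these moves was not tested. Of 147 named genes, 100 differed at least 2-fold and 79 did so in all settings.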
